A study of Mus musculus with 6 samples.

Results

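MicroRNAs (miRNAs) that are known for striated muscle or for blood cells lie off the path from pluripotent mouse embryonic stem cells (ESCs) to neuronal cells (NCs). The 10 miRNA genes examined were chosen by name for that known role, and the rule used none of their measured levels. They were mir-1a-1, mir-1a-2, mir-133a-1, mir-133a-2, mir-133b and mir-206 for muscle, and mir-142, mir-223, mir-144 and mir-451a for blood. The table of 898 miRNA genes held a row for 8 of the 10, of which 5 were muscle and 3 were blood miRNAs. mir-206 and mir-223 had no row under these names and were not analysed here.

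Small-RNA libraries were made from E14Tg2a cells, a feeder-independent mouse ESC line, at passages 37 to 40. In 3 libraries the cells had been kept in leukemia inhibitory factor (LIF), which maintains self-renewal (ESCs). In the other 3, LIF had been withdrawn and the monolayers exposed to 1 µM retinoic acid (RA) for 48 hours (NCs). The labels describe the replicates as handled apart, each with total RNA from its own 2 plates, but do not say whether they were grown as independent experiments. Both groups came from this 1 cell line, so the p-values measure only the spread between these libraries, part of which may be technical.

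The muscle miRNAs are a textbook example of tissue restriction. mir-1a and mir-133a are transcribed together from a pair of duplicated loci under muscle factors such as MEF2, SRF and MyoD, and mir-206 and mir-133b form a related pair in skeletal muscle. In blood, mir-142 is found across hematopoietic lineages, and mir-223 is known for granulocytes and monocytes. mir-144 and mir-451a come from 1 erythroid transcript driven by GATA1, and mir-451a is matured by Argonaute 2 without Dicer. mir-142 has also been described in mouse ESCs, where it has been linked to the choice between self-renewal and differentiation.

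The sequences below are mature arms of mir-142, mir-144, mir-451a, mir-133b and mir-1a-1, shown because each count is a count of reads from these short RNAs. They are from RefSeq (GRCm38.p6), whose table was matched to 5 of the 8 genes with a row and not to mir-1a-2, mir-133a-1, mir-133a-2 or the 3p arm of mir-1a-1. They are written 5′ to 3′ with the seed, bases 2 to 8, in capitals.
miR-142a-5p: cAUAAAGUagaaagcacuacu
miR-142a-3p: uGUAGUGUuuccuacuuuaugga
miR-144-5p: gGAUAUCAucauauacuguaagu
miR-144-3p: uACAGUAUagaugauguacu
miR-451a: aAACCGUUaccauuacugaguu
miR-133b-5p: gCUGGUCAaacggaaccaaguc
miR-133b-3p: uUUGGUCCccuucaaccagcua
miR-1a-1-5p: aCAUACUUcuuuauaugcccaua

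These arms were 20 to 23 bases long, so no correction for length was made between members. Other differences in how the members were counted were not tested. No 2 of the printed arms shared a seed. The main mir-133a arm, not in the table used, is known to share the seed of miR-133b-3p. The deposited counts were for whole genes, so the arms of a hairpin could not be told apart. The hairpin of mir-142 shared at most 13 consecutive bases with the hairpins of 691 other miRNAs in the table. The longest such runs were 13 bases for mir-144 and 11 bases for mir-451a.

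Levels are given as normalised counts, the reads of a library over its size factor, a measure of its depth. The authors deposited only the mean of each group, from which the reads of single libraries were recovered. The recovered libraries have no replicate number, so they are called A (the deepest), B and C (the shallowest) in each group. The size factors differed by up to 4.21-fold, and 1 read was worth from 0.434 normalised counts in NC library A to 1.83 in ESC library C. A library with 0 reads of a miRNA could still hold it at a level that gives up to 3 reads. A floor, under which no fold change was read, was therefore set at the group mean that 3 reads in every library would give, 3.51 in ESCs and 3.17 in NCs. These floors cover counting error only. The shallowest library of each group, C, stood apart from A and B, as described for mir-142.

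The line and its differentiation were checked with marker miRNAs. Of 11 miRNAs known for ESCs, 6 could be tested and all 6 were lower in NCs (limma-voom, adjusted p from 0.000465 to 0.00854). Among neuronal markers, the mir-124 genes, which are high in mature neurons, had means of 5.19 to 6.02 in NCs and 2.09 to 2.70 in ESCs. The neuronal marker was thus just above the floor in NCs and under it in ESCs. The mir-9 genes, known for neural progenitors, had means of 767 to 768 in NCs and 420 to 423 in ESCs, and their difference did not pass the test (adjusted p from 0.0789 to 0.0793). With the library set (shallowest or not) as a covariate in limma-voom, all 3 mir-9 genes were higher in NCs (adjusted p from 0.00332 to 0.00401). The mir-9 copies had nearly the same reads (810, 796 and 801 in ESC library A), so they amount to 1 measurement and not 3. The mir-124 copies were also alike (19, 18 and 17 reads in NC library A).

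No read was counted for the 5 muscle miRNAs. mir-1a-1, mir-1a-2, mir-133a-1, mir-133a-2 and mir-133b were listed at 0 in both groups, and the recovered reads were 0 in each of the 6 libraries for each of them. For 0 reads over the 3 libraries of a group, the 95% exact Poisson interval reaches up to 1.19 normalised counts in ESCs and 0.954 in NCs (counting error only), and levels under these limits cannot be told from 0 at this depth. In the whole table, 264 of 898 miRNA genes (29.4%) were at 0 in both groups. With both groups at 0, no fold change can be given.

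These 0 values covered each of the loci that carry the genes. mir-1a-1 and mir-133a-2 lie 9254 bases apart on the plus strand of chromosome 2 (180389048 to 180389124 and 180398379 to 180398482 in GENCODE M21 on GRCm38), outside other annotated genes. mir-133b lies on the plus strand of chromosome 1 (20682769 to 20682887) within an exon of the noncoding gene Gm28653, 3686 bases from mir-206. mir-1a-2 and mir-133a-1 lie 2504 bases apart on the minus strand of chromosome 18, inside the protein-coding gene Mib1 on the opposite strand. The main mature arm is the same in both mir-1a copies, and how reads that match several loci were counted was not given in the sources used here. Gene copies of other miRNAs differed in how they were listed. mir-128-1 had means of 80.02 in ESCs and 71.38 in NCs, while mir-128-2 was at 0 in both groups. mir-16-1 and mir-16-2 were alike, with 10409 and 10398 in ESCs and 12330 and 12329 in NCs. Both mir-1a copies were at 0, and whether the counting of copies played a part was not tested. mir-133b has a single locus, and it was also at 0. This value cannot separate absence from the cells from a loss in the counting, because the counting rules were not given. Whether mir-133b would have been counted if present was not tested.

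mir-1b, annotated on the strand opposite to mir-1a-2, covers all 72 bases of its hairpin. It had 0 reads in the 3 ESC libraries and 1 read in each of the 3 NC libraries (a mean of 1.06), under the floor. mir-1b was not one of the 10 and was looked at after its values were seen.

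The erythroid pair was close to 0. mir-144 had 4, 1 and 0 reads in ESC libraries A, B and C and 5, 0 and 0 in NC libraries A, B and C. Its means were 1.18 in ESCs and 0.723 in NCs. The reads of mir-144 came mostly from the deepest library of each group, and the groups overlapped.

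mir-451a had 5, 2 and 0 reads in ESC libraries A, B and C and 11, 2 and 0 in NC libraries A, B and C. Its means were 1.74 in ESCs and 2.27 in NCs. The 11 reads in NC library A, or 4.77 normalised counts, were the highest value of mir-451a, and the groups overlapped here too. Both C libraries had no read of either miRNA.

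Summed over the libraries of a group, mir-144 had 5 reads in ESCs, which is 1.61 reads per unit of size factor (95% exact Poisson interval 0.523 to 3.76, counting error only). In NCs it had 5 reads, or 1.29 (0.420 to 3.02). For mir-451a the 7 reads in ESCs were 2.25 (0.906 to 4.64) and the 13 reads in NCs were 3.36 (1.79 to 5.75). The intervals of the groups overlapped for each. Both means of each miRNA were under the floor, so no fold change is read from them, and neither miRNA had enough reads for the main test. The pair lies on the plus strand of chromosome 11, with mir-144 at 78073005 to 78073070 and mir-451a at 78073170 to 78073241, 99 bases apart. mir-451b is annotated on the other strand of the whole mir-451a hairpin. The use of strand in the counting was not stated, and reads of mir-451a and mir-451b cannot be told apart.

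**Figure D1:**
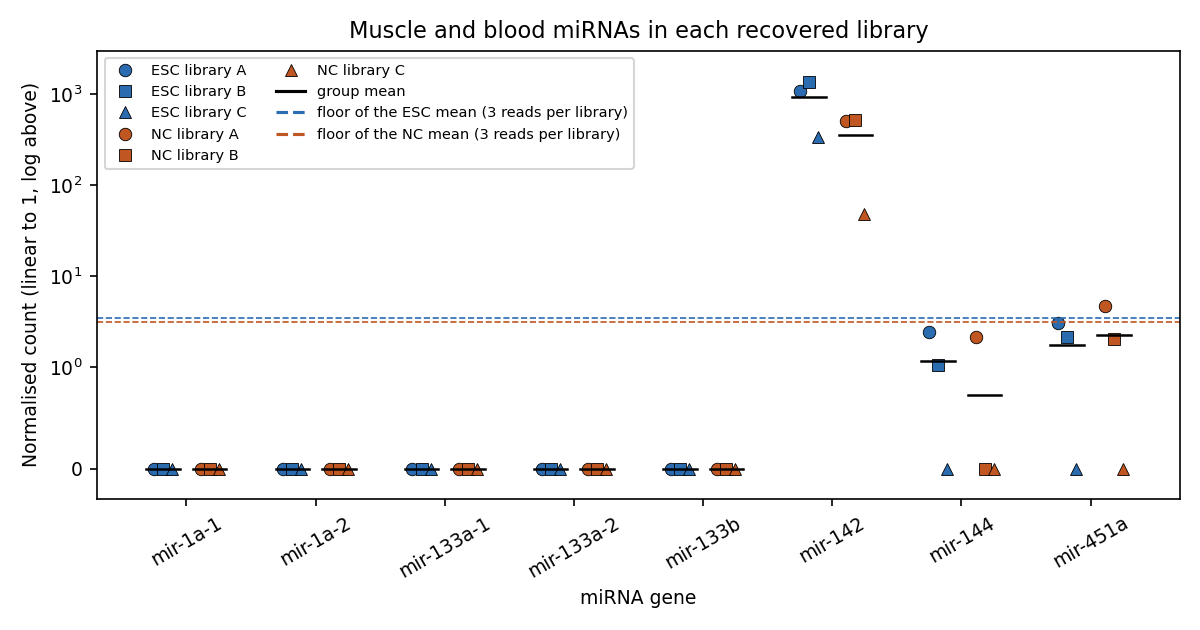
Normalised counts of the 8 miRNA genes with a row in the table (y axis, linear to 1 and logarithmic above), by library (circle A, square B, triangle C) in ESCs (blue) and NCs (orange), with group means as black lines and the floors of the means as dashed lines. The 5 muscle miRNAs lie at 0 in all 6 libraries and the means of mir-144 and mir-451a lie under the floors, while mir-142 lies between 47.9 and 1350.

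mir-142 was present in every library and stood apart from the other members. Its normalised counts were 1083, 1350 and 340 in ESC libraries A, B and C, from 1757, 1266 and 186 reads. In NC libraries A, B and C they were 505, 517 and 47.9, from 1165, 505 and 28 reads. The group means were 924 ± 524 in ESCs and 357 ± 267 in NCs (SD, n = 3 recovered libraries each). All 3 ESC libraries lay above NC library C, but ESC library C lay under NC libraries A and B, so the groups overlapped.

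At 263 times the floor in ESCs and 113 times the floor in NCs, mir-142 was well within the detected range. It ranked 66 of 549 miRNA genes above 0 in ESCs, where it exceeded 88.0% of them, and 102 of 602 in NCs, where it exceeded 83.1%. mir-142 made up 99.7% of the signal of the 8 members in ESCs and 99.2% in NCs. Together the 8 held 0.0804% of the signal in ESCs and 0.0224% in NCs.

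**Figure D2:**
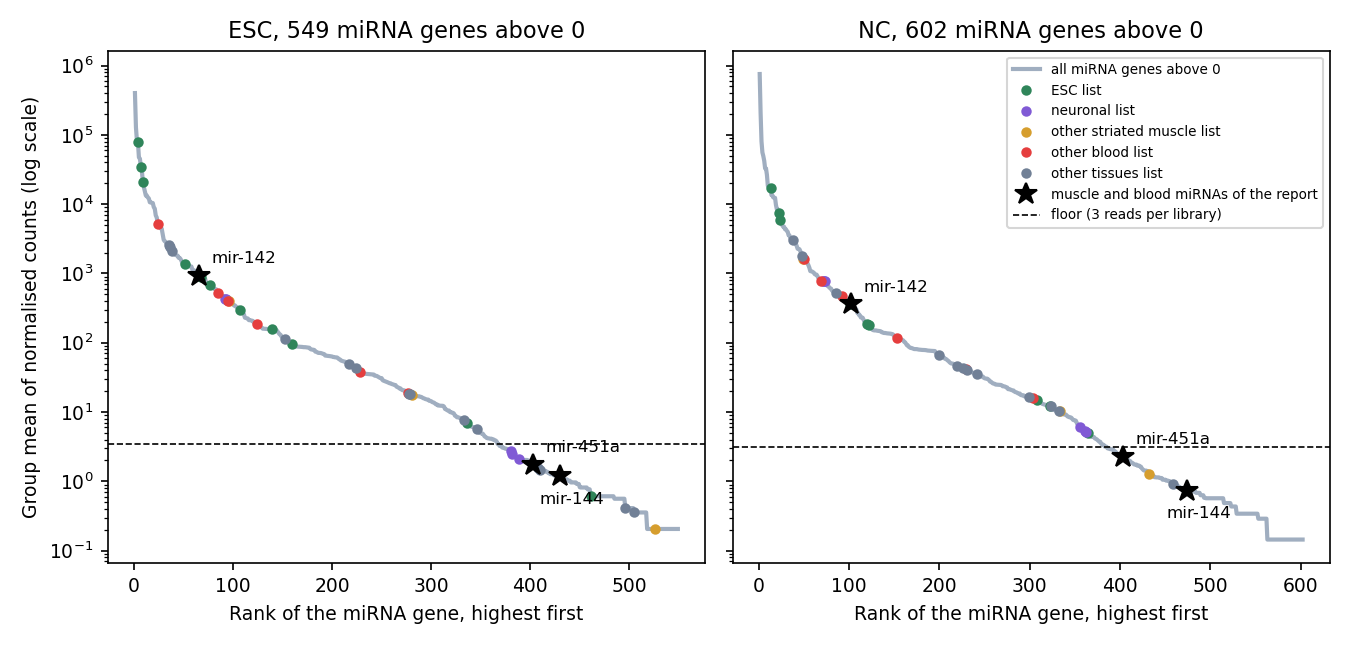
Group means of normalised counts (y axis, log scale) against the rank of each miRNA gene (x axis) in ESCs (left) and NCs (right), for genes above 0. Stars mark mir-142, at ranks 66 and 102, and mir-144 and mir-451a, under the dashed floor, and coloured points mark lists of miRNAs known for other cell types; miRNAs at 0, among them the muscle miRNAs, cannot be drawn.

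The mean of mir-142 was 2.59-fold higher in ESCs than in NCs (a log2 fold change of NCs over ESCs of -1.37 on log2 of the means + 1). This difference did not pass the test over all 6 libraries (limma-voom log2 fold change -1.89, SE 1.09, 95% interval -4.48 to 0.69, adjusted p = 0.350). With the same test 18 of 317 miRNAs, or 5.68%, were lower in NCs at an adjusted p under 0.05. mir-142 was the only member with enough reads to be tested, and it was not called. At an unadjusted p under 0.05, 83 of the 317 miRNAs passed but mir-142 did not. limma-trend did not call mir-142 either (adjusted p = 0.394).

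Library C lay far from A and B in each group. On the log2 scale mir-142 in library C was lower than the mean of A and B, with a deviation of -1.83 in ESCs and -3.39 in NCs. Libraries A and B differed by only -0.32 in ESCs and -0.03 in NCs. Over the 264 miRNAs whose mean reached 20, the deviation of mir-142 ranked 21 from the lowest in ESCs and 5 from the lowest in NCs. The SD of this deviation over the 264 was 1.29 in ESCs and 1.19 in NCs. Library C is defined by its depth alone, the labels name no batch, and the part of depth in this deviation was not tested.

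**Figure D3:**
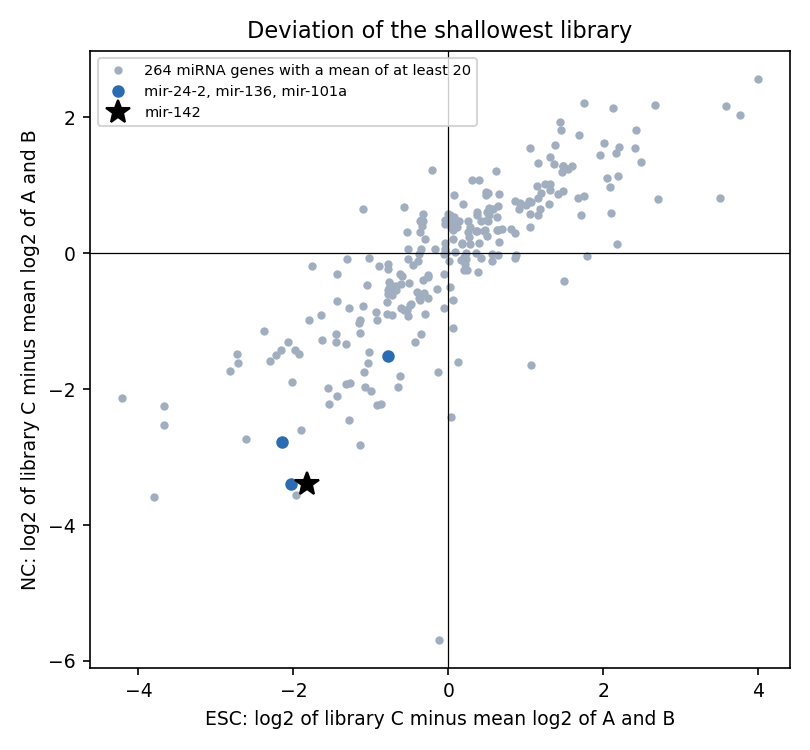
Log2 level in the shallowest library C minus the mean log2 level of A and B, in ESCs (x axis) and in NCs (y axis), for the 264 miRNA genes whose mean reached 20 (grey points). mir-142 (star) lies at -1.83 and -3.39, and the blue points are mir-24-2, mir-136 and mir-101a, whose levels over the 6 libraries were most like it.

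Comparisons among like libraries gave the same direction. In the 2 deeper libraries of each group the means of mir-142 were 1217 in ESCs and 511 in NCs, 2.38-fold higher in ESCs. Here both ESC libraries lay above both NC libraries. In the shallowest libraries the values were 340 and 47.9, 7.10-fold higher in ESCs, with 1 library a group and no test.

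With the library set (C, or A and B) as a covariate, mir-142 was lower in NCs (limma-voom log2 fold change -1.58, SE 0.256, adjusted p = 0.000562). It was also called with only the 2 deeper libraries of each group, a choice made after the data were seen (log2 fold change -1.23, SE 0.142, adjusted p = 6.25e-06). Calls were far more frequent in these fits. Of 317 miRNAs, 68 (21.5%) were lower in NCs with the covariate, and of 325 tested in the deeper libraries 70 (21.5%) were lower. Leaving out NC library C without the covariate moved the estimate to -0.57 (adjusted p = 0.591). Thus the call of mir-142 rested on how the shallowest libraries were treated, while its sign was negative in each fit run. In whole cultures, fewer cells with mir-142 and less mir-142 per cell cannot be told apart.

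**Figure D4:**
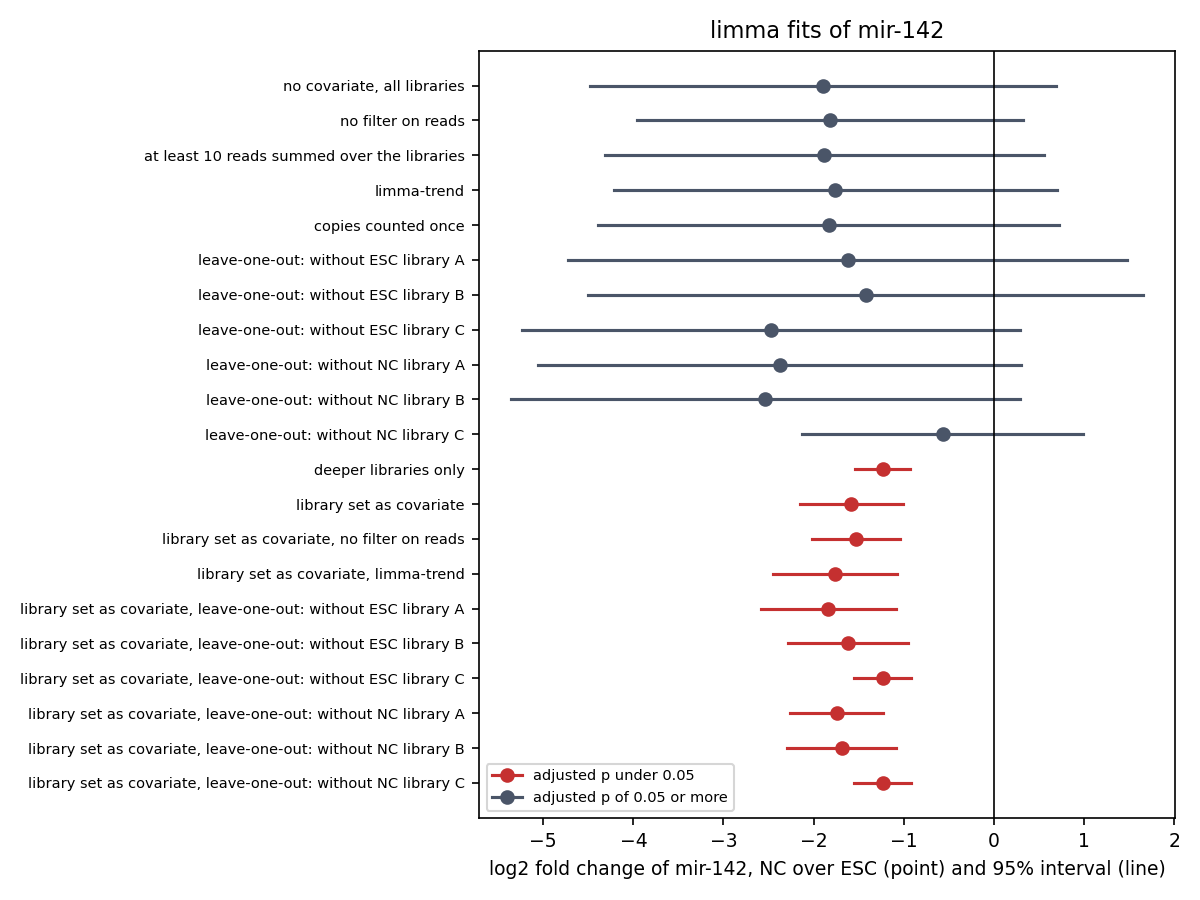
Log2 fold change of mir-142, NCs over ESCs (points), with the 95% interval (lines) in 21 limma fits, red where the adjusted p was under 0.05. The 11 fits without the covariate that include library C of at least 1 group have wide intervals that include 0, and the 10 fits with the library set as covariate or with the deeper libraries alone lie between -1.84 and -1.23.

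Scaling changed the size of this difference but not its sign. mir-10a took up 47.1% of the NC signal, and setting the totals of the groups equal shifted each log2 fold change by -0.48, or by 0.44 without mir-10a. The log2 fold change of mir-142 was then -1.85 and -0.93. The median log2 fold change over all 634 miRNAs above 0 was 0.07.

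mir-142 (Mir142) lies on the plus strand of chromosome 11 at 87756864 to 87756927 (GENCODE M21 on GRCm38), inside the noncoding host gene Mir142hg. mir-142b is annotated on the opposite strand across all 64 bases of this hairpin and had no row of its own in the table, so its reads and those of mir-142 cannot be told apart. The miRNAs most like mir-142 over the 6 recovered libraries, of 321 compared on log2 of normalised counts + 1, were mir-24-2 (Pearson's r = 0.992), mir-136 (0.988) and mir-101a (0.985). These correlations are descriptions over 6 points that share libraries, and they follow the C libraries as well as the groups. mir-136, for example, had 1605, 1793 and 384 normalised counts in ESC libraries A, B and C and 702, 784 and 108 in NC libraries A, B and C.

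Other miRNAs known for muscle and blood were examined by a fixed list. Of 4 further striated muscle miRNAs, mir-208b, from a cardiac and slow-muscle myosin gene, was at 0 in both groups and mir-208a had means of 0.205 in ESCs and 1.28 in NCs, under the floors. mir-499, also from a myosin gene, had means of 17.8 and 10.2 and was not called. mir-486, which muscle shares with red cells, was higher in NCs (394 against 1641, adjusted p = 0.0381 in limma-voom), the only one of the 2 tested that was called. Its counts were close to those of mir-3107 on the opposite strand of the same locus (401 and 1634), and their reads cannot be told apart.

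All 6 further blood miRNAs had means of at least 10 in both groups. Without the covariate 1 of the 6 was called, mir-3107, which was higher in NCs. Its reads cannot be told apart from those of mir-486, so this call and that of mir-486 are not separate. With the covariate 2 were also called lower in NCs, mir-150 and mir-155. Over all 317 miRNAs tested, 32 were called higher and 18 lower without the covariate, and 75 higher and 68 lower with it. mir-150, known for mature lymphocytes, had normalised counts of 1154, 1028 and 13159 in ESC libraries A, B and C and 347, 371 and 1611 in NC libraries A, B and C. Its C libraries were thus the highest of each group, where those of mir-142 were the lowest. In all, the summed means of the 6 blood miRNAs came to 6282 in ESCs and 3059 in NCs. Over the deeper libraries A and B alone, a choice made after the data were seen, the sums were 2309 and 2353. The higher ESC sum thus rested on library C, where mir-150 was at 13159. The ESC mean of mir-150, 5114, lies above 2500, the highest mean at which the recovery was simulated. Over all libraries the members from blood came to 927 and 360. Among 15 miRNAs known for other tissues, 10 in ESCs and 11 in NCs were above the floor, led by mir-126a of endothelium, with means of 2563 and 3086. The median log2 fold change was -0.20 for the further blood list and -0.18 for the list of other tissues, beside 0.07 over all miRNAs above 0. These medians are smaller than the scaling shifts of -0.48 and 0.44, so their signs change with the scaling.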

How the data were processed

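Total RNA from 3 LIF and 3 RA cultures was made into small-RNA libraries. The submitters' processing notes name build mm10 and DESeq; adapter removal, aligner, annotation and counting rules were not given in the sources used here. The signal columns deposited by the authors were group means of counts divided by a size factor. The authors' fold changes and p-values were not used, and 0 columns belonged to unlisted samples.

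With 3 libraries a group, a mean is built from 3 read numbers, each times the worth of 1 read in its library. Enumerating these sums gave the reads of 528 (ESCs, of 549 detected) and 582 (NCs, of 602 detected) miRNAs. They held 12.3% and 10.4% of the signal and 92342 to 371396 reads a library. In simulated means up to 2500, 1042 of 1042 were recovered correctly, and higher means were not simulated.

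The main test was limma-voom (limma 3.58.1, R 4.3.3) across the 317 miRNAs that reached 10 reads in 3 libraries, with the recovered size factors and Benjamini-Hochberg adjustment at 0.05. Of 611 recovered miRNAs above 0, 1 member, mir-142, entered it. In simulated libraries it called 64 of 65 tested miRNAs changed 4-fold, with 8.57% false calls. The simulation gave all miRNAs the same spread and no separate shift of library C, so these rates may not hold for the real libraries. Named miRNAs were the members, those of the fixed lists with a mean of at least 10 or sharing a locus, and the 3 most like mir-142. mir-124, mir-143, mir-208a, mir-208b, mir-1b and the mir-128 and mir-16 copies were named outside this rule. The mir-128 and mir-16 copies were picked after their values were seen. The members, lists and tests were chosen with earlier results of these data known. Alternatives covered filters, library set, weights, copies, scaling, pseudocount and libraries. Scripts ran on Python 3.11.15 with scipy 1.17.1, pandas 2.3.3 and numpy 2.4.6.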

Additional observations from a re-analysis of the deposited data

How the results depend on the processing

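No paired analysis was possible because no replicate number is attached to any of the libraries recovered. The count tests planned for a table of counts per library were left out, as the table gave means. Limma-voom called 50 miRNAs in all, against 143 with the library set as covariate, 141 with the covariate and no filter, 126 with the covariate and limma-trend, and 162 in the deeper libraries alone. Leaving out 1 library gave 17 to 52 calls (17 and 19 without A or B of the ESCs, 31 and 22 without A or B of the NCs), and with the covariate 111, 129 and 164 without ESC library A, B or C and 119, 122 and 166 without NC library A, B or C. For the members, 0 were called in the 11 fits with neither, with adjusted p of mir-142 from 0.221 to 0.668. In the 10 fits with the covariate or with the deeper libraries 1 was called, mir-142, with adjusted p from 6.03e-10 to 0.00616. The lowest came from the covariate fit without NC library A, where the SE of mir-142 was 0.261. With all 6 libraries and the covariate the SE was 0.256 and the adjusted p 0.000562 (limma-voom). The lowest p therefore does not reflect a smaller SE and is not read as stronger evidence. Fits with 1 library left out thus gave 0 to 1. With the covariate, leaving out library C of either group leaves the group difference to libraries A and B. Those fits nearly repeat the fit of the deeper libraries (log2 fold change -1.23 in each), so the 10 fits are not independent. On the group means the log2 fold change of mir-142 ranged from -2.80 to -0.85 and was negative throughout. The median log2 value over the 3 members above 0 falls on mir-144 or mir-451a, both under the floor, and no direction is read from it: leaving out 1 library moved it from -1.12 to 0.17, the positive value without ESC library A. The settings with the deeper or shallowest libraries, the floor, or the covariate joined to another choice were added after the data were seen. The share of the members in NCs was 0.0424% of the signal without mir-10a. Counting any read, 3 members were detected in each group, against 1 above the floor. The members with a row other than mir-142 were at 0 or under the floor. The parts of depth and of the counting rules in this were not tested.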

Other observations

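The mir-199a genes, known for mesenchyme, were higher in NCs without the covariate. mir-199a-1 rose from 18.4 to 41.0 and mir-199a-2 from 18.1 to 42.6 (limma-voom, adjusted p = 0.0344 for both), and their gene copies share reads. mir-205, known for skin epithelium, fell from 2417 to 525 (adjusted p = 0.0273). mir-143, of smooth muscle and fibroblasts, was at 0 in both groups, while mir-145a, from the same locus, had means of 113 and 67.1 and was called only with the library set as covariate (adjusted p = 0.100 without and 0.00221 with it, in limma-voom).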
